A study of Mus musculus with 36 samples.

Results

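The interval from 6 to 18 hr post induction (hpi) was examined in B cells that carry wild-type C/EBPα and are on their way to becoming macrophages, a process called B cell to macrophage transdifferentiation (BMT). The comparison rests on 4 of the 36 RNA-seq libraries of the series, 2 at 6 hpi and 2 at 18 hpi. These libraries were taken by construct and time as the labels give them and not by any measured value. The comparison and the gene lists were chosen with earlier results of these data known. The cells were bone marrow B cells of C57BL/6J mice, expanded with IL-7 on S17 stromal cells, infected with a C/EBPα-ER-hCD4 retrovirus and enriched for human CD4, the marker on the virus. ER is the hormone-binding part of the estrogen receptor, meant to hold the fused factor outside the nucleus until estradiol (E2) is given. All libraries used here, those before induction included, carry the fusion protein. The paper proposes a leakiness of the construct, as B cell regulatory elements were more accessible in uninduced cells of a mutant form (R35A, below). The induced cells grew on mitomycin-C-inactivated mouse embryonic fibroblasts (MEFs) with IL-7, IL-3, FLT-3, CSF-1 and SCF, and the feeders were then taken away by their adherence to plastic. For comparison, cells with C/EBPαR35A and C/EBPαR35K, in which the arginine at position 35 is changed to alanine or lysine, were cultured in the same way with 2 libraries at each of the same timepoints. The ages of the mice are not given in the labels.

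C/EBPα is a leucine zipper transcription factor that founds the granulocyte and macrophage lineages, and in B cells it works together with PU.1, the product of Spi1, to open myeloid genes while the B cell program is shut down. Pre-B cells divide under IL-7 and depend on Pax5, Ebf1 and the pre-B cell receptor. Macrophages in contrast are mostly quiescent phagocytes that carry Fc, complement, lectin and scavenger receptors. B cell identity, proliferation and the macrophage program are thus the programs followed below.

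Promoters of cell cycle genes and of 1 granule gene are shown first. The mitosis and DNA replication lists had more called members than any other list (44 of 45 and 40 of 48 lower). By share the pre-B and B cell receptor components (90% lower) lay above the replication genes (83.3%), beside 10.0% of all genes. The windows are from RefSeq on GRCm38.p6 (mm10), written 5′ to 3′ on the strand of the gene and ending at the base before the transcription start unless stated. Capitals mark TTTGAA or TTCGAA on either strand in Mki67 and Cdk1, the core of the cell cycle homology region (CHR) of genes that peak in mitosis. In Mcm5 and Mcm6 they mark E2F-like sites (TTTCCCGC, TTTCGCGC, TTTGCCGC or TTTGGCGC, either strand), which are typical of DNA replication genes, and in Mmp8, the neutrophil collagenase gene, a C/EBP-like site (TTGCNNAA, either strand). The 5 promoters were picked after the matches were seen, and overlapping matches in Mcm5 and Mcm6 are printed as 1 run of capitals.
Mki67, chr7:135716380-135716509, minus strand: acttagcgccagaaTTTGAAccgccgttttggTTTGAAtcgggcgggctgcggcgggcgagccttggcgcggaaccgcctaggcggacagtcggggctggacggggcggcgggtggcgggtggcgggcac
Cdk1, chr10:69352913-69353012, minus strand: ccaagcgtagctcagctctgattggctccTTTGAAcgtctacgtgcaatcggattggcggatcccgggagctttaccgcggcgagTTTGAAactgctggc
Mcm5, chr8:75109329-75109428, plus strand, from 180 to 81 bases before the start: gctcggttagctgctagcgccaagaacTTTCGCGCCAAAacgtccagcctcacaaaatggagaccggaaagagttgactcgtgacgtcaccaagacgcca
Mcm6, chr1:128359706-128359835, minus strand: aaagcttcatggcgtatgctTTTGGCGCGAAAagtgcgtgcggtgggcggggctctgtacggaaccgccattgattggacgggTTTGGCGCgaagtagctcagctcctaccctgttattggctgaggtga
Mmp8, chr9:7558329-7558428, plus strand: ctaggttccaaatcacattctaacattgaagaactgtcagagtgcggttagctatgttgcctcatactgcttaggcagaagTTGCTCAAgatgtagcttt

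The 4 libraries had 14657990 to 16546385 counts on genes; levels are given below in CPM, the usual depth-scaled counts, with library sizes adjusted by TMM. The B cell markers were present at 6 hpi and lower at 18 hpi (7 of 7 called lower, summed 1282 and 1286 CPM against 332 and 335), and the macrophage markers were present at both times (2 of 8 called higher, 582 and 574 against 822 and 819.6). Markers of NK and erythroid cells were at or near 0 at both times, those of neutrophils summed to at most 2.87 CPM those of T cells to at most 10.6 CPM, those of dendritic cells to at most 14.0 CPM and those of mast cells and basophils to at most 34.3 CPM. Library 1 at 6 hpi stood apart in one respect. It had 0.969% of its counts on 5 genes that overlap ribosomal RNA or other abundant noncoding RNA (CT010467.1, Mir6236, Lars2, Rn7sk and n-R5-8s1), against 0.0195% to 0.12% in the other 23 libraries of the fit. CT010467.1 gave 7093 and 195 CPM at 6 hpi and 159.8 and 168 at 18 hpi, and its log2 fold change of −4.47 became −0.25 (adjusted p = 0.6) without that library, as Mir6236 went from −4.25 to −0.20 (0.75) and Lars2 from −3.60 to −0.17 (0.65). These genes are therefore not described further, although the fit counts them as lower.

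Transcripts of feeder fibroblasts were abundant at both times. The 13 feeder fibroblast markers, which are collagens, other matrix genes and the surface proteins Thy1, Pdgfra and Pdgfrb, summed to 16175 and 16709 CPM at 6 hpi and to 19393 and 18952 CPM at 18 hpi. Of these 13 markers 0 were called higher and 1 (Lum) lower, with a median log2 change of 0.14 and a range from −1.21 to 0.35, and Fn1 alone, which macrophages also make, gave 9689 and 10049.6 CPM at 6 hpi and 12248 and 11919.8 CPM at 18 hpi. Genes that all white blood cells share, listed after values of some of them had been seen, went the other way. Their sum was 3408 and 3392 CPM at 6 hpi and 1904 and 1864 CPM at 18 hpi. Of the 25 tested 17 were lower and 0 higher (median −0.91, range −1.76 to 0.34). These genes are no fixed reference, since their sum was 5001 and 5031 CPM at 0 hpi and 16431 and 16189 CPM at 120 hpi. The list also shares a member with the B cell signature genes of the study, and members with other lists that are scaled to it. Among these are Laptm5 of the lysosome genes and Coro1a of the myeloid actin genes. Ptprc, which encodes the pan-leukocyte antigen CD45, gave 205 and 192 CPM at 6 hpi and 122 and 126 CPM at 18 hpi, Coro1a, an actin-binding protein of leukocytes, 241 and 235 CPM at 6 hpi and 117 and 115 CPM at 18 hpi, and Laptm5 376 and 385 CPM at 6 hpi and 209.6 and 198 CPM at 18 hpi. In R35A cells the same genes summed to 3329 and 3366 CPM at 6 hpi and to 3489 and 3519 CPM at 18 hpi. All levels below are shares of the RNA of the whole culture, in which fewer cells of a type and less RNA per cell cannot be told apart, and the part that the leukocyte share has in each result was not tested. Counts and medians of lists scaled to the leukocyte genes in place of all genes are therefore given beside the main ones. On that scale 11595 of all 16988 genes tested were higher and 507 lower, with a median of 0.87. The list values on it are to be read beside these, since most genes of any kind were higher there.

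Between 6 and 18 hpi far more genes fell than rose in wild-type cells. Of 16988 genes tested with edgeR's quasi-likelihood test, 1707 (10.0%) were lower and 558 (3.28%) were higher at 18 hpi, with a change of at least 1.5-fold and a p of at most 0.05 after Benjamini-Hochberg adjustment. With adjusted p alone the directions were even, with 3775 genes lower (22.2%) and 3826 higher (22.5%), and the median log2 fold change of all genes was 0.01. The falls were also larger. Their median was 2.27-fold against 1.72-fold for the rises, 1048 genes (61.4%) fell by at least 2-fold and 274 by at least 4-fold, while 160 rose by at least 2-fold and 13 by at least 4-fold. The 2 libraries at one time did not overlap with those at the other for 2257 of the 2265 genes called, beside 11992 (70.6%) of all genes tested. Scaled to the leukocyte genes, 507 genes were lower and 11595 higher, that is 95.8% of calls higher in place of 24.6%, so 507 of the 1707 falls exceeded that of the leukocyte genes by 1.5-fold, and all 558 rises stayed above the threshold.

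**Figure D1:**
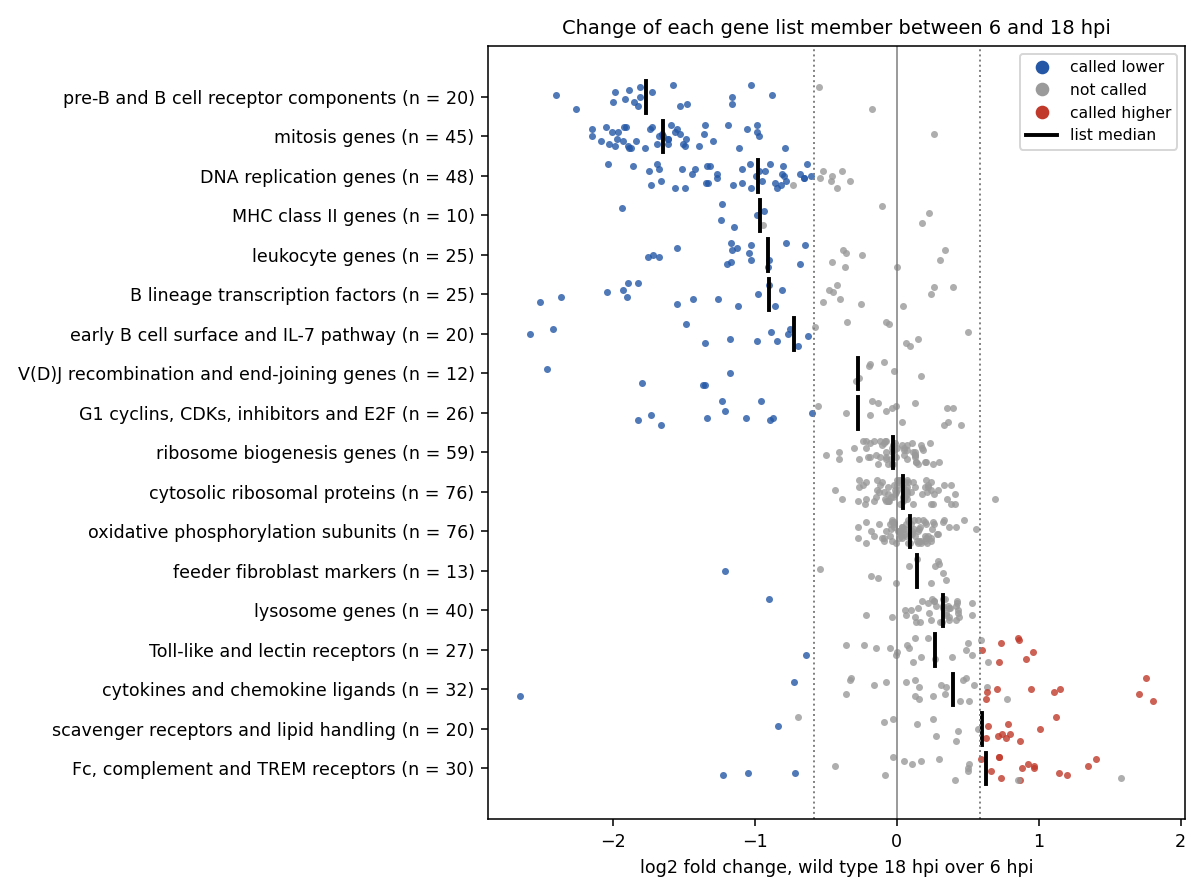
Log2 fold change between 6 and 18 hpi (x axis, 18 over 6 hpi, TMM-scaled) of each tested member of 18 gene lists, with called genes in colour, list medians as black bars and the 1.5-fold threshold as dotted lines. Pre-B cell receptor and mitosis genes lie far to the left (medians −1.77 and −1.65), ribosomal and oxidative phosphorylation genes around 0 and phagocyte receptors to the right (medians 0.60 and 0.63); scaled to the leukocyte genes the ribosomal medians lie above 0.

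Mitosis genes fell almost as a whole. Of the 45 mitosis genes tested 44 were lower and 0 higher (97.8%, beside 10.0% of all genes), with a median log2 fold change of −1.65, beside 0.01 over all genes. Their summed level went from 2863 and 2904 CPM to 892 and 878 CPM. Mki67, the proliferation antigen Ki-67, gave 566 and 573 CPM at 6 hpi and 131 and 126 CPM at 18 hpi, a log2 fold change of −2.15 ± 0.039, adjusted p = 2.02e-41. Knl1, a kinetochore scaffold, gave 44.4 and 41.7 CPM at 6 hpi and 9.96 and 9.42 CPM at 18 hpi (−2.15 ± 0.092, adjusted p = 7.43e-26). In both genes the 18 hpi libraries lay far below the 6 hpi libraries, and the replicates lay close together. Cdk1, the mitotic kinase with 2 CHR cores in the promoter shown above, fell less, from 73.0 and 69.7 CPM to 32.3 and 30.4 CPM (−1.19 ± 0.056). Scaled to the leukocyte genes, 33 of the 45 were lower and 1 higher (median −0.80).

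DNA replication genes fell with them but by less. Among the 48 tested 40 were lower and 0 higher (83.3%, median −0.98), and their sum went from 2590 and 2610 CPM to 1260 and 1252 CPM. Uhrf1, which brings the maintenance methylase to newly made DNA, gave 104 and 101 CPM at 6 hpi and 25.8 and 24.2 CPM at 18 hpi (−2.04 ± 0.053, adjusted p = 4.52e-35), and Mcm3, a subunit of the replicative helicase, gave 124 and 126 CPM at 6 hpi and 33.4 and 35.5 CPM at 18 hpi (−1.86 ± 0.046, adjusted p = 4.27e-36). The helicase subunits of the promoters shown above followed, Mcm5 from 136 and 144 to 42.8 and 41.5 CPM and Mcm6 from 135 and 135 to 49.5 and 51.0 CPM. Scaled to the leukocyte genes the replication genes hardly moved as a list, with 11 lower, 0 higher and a median of −0.13. Dnmt1, the maintenance DNA methyltransferase, fell as well (179.9 and 190.4 CPM at 6 hpi and 75.4 and 73.1 CPM at 18 hpi, −1.32 ± 0.040), though not by 1.5-fold on the leukocyte scale (−0.47).

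The genes that set the entry into S phase fell in part. Of 26 G1 cyclins, CDKs, inhibitors and E2F genes 11 were lower and 0 higher (42.3%, median −0.27), whereas on the leukocyte scale 3 were lower, 13 higher and the median was 0.58. E2f2, an activator of S phase genes, gave 65.3 and 69.1 CPM at 6 hpi and 20.4 and 17.6 CPM at 18 hpi (−1.83 ± 0.063, adjusted p = 1.16e-29), and Ccne1 and Ccne2, the E cyclins, had log2 fold changes of −0.96 and −1.21. Cdkn1a, the CDK inhibitor p21, gave 1797 and 1807 CPM at 6 hpi and 2312 and 2304 CPM at 18 hpi, and Ccnd2, a D cyclin, gave 473 and 489.7 CPM at 6 hpi and 611 and 619 CPM at 18 hpi. The last pair was slightly above its 6 hpi level, with non-overlapping libraries and log2 changes of 0.36 and 0.35 that did not reach 1.5-fold. Cdkn1a was already at 1448 and 1436 CPM before induction and was at 916 and 864 CPM at 120 hpi. Whether the reads of this pair come from the B cells or from the feeders was not tested. Myc, a growth regulator, was at 42.5 and 42.8 CPM at 6 hpi and 49.6 and 52.9 CPM at 18 hpi (0.27 ± 0.056, adjusted p = 9.04e-05) and was not called either.

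Promoter windows of 300 bases, from 250 before to 50 after the start, were available from RefSeq for 11753 of the 16988 genes. Of the mitosis genes 30 of 37 (81.1%) held a CHR core in at least 1 window, beside 16.9% of all genes tested and 19.2% of all windows. Of the replication genes 16 of 39 (41.0%) held an E2F-like site, beside 4.34% of all genes tested and 2.26% of all windows. Mitosis genes rarely held the E2F-like letters (1 of 37) and held no C/EBP-like ones (0 of 37). The 1 with E2F-like letters was Cdk1, whose TTTCGCGC at −131 from the start lies outside the stretch printed above. Over all genes that were called lower 25.98% held a CHR core and 7.83% an E2F-like site, and over those called higher 17.4% and 1.49%. A C/EBP-like site was in 10.2% of the genes called higher, 11.9% of those called lower and 10.4% of all genes tested, so its share hardly differed. By list it was in 7 of 21 Toll-like and lectin receptor genes (33.3%) and 7 of 25 Fc, complement and TREM receptor genes (28.0%), but also in 5 of 21 B lineage transcription factor genes (23.8%), and in 1 of 13 scavenger receptor (7.69%) and 2 of 21 cytokine genes (9.52%). The CHR core was as frequent in the Toll-like and lectin receptor genes (7 of 21, 33.3%). It was in 6 of 21 B lineage transcription factor genes (28.6%) and in 2 of 25 Fc, complement and TREM receptor genes (8%). These shares are descriptions of letters in fixed windows, where genes with several start sites have more than one chance of a match.

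**Figure D2:**
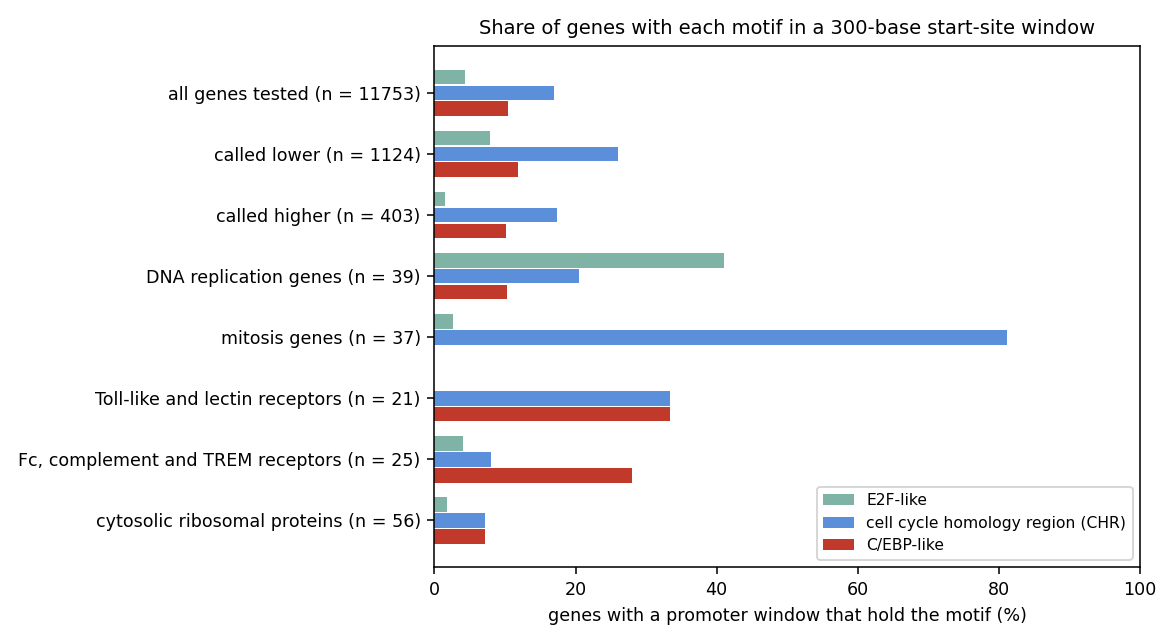
Share of genes (x axis, percent) with at least 1 E2F-like site, CHR core or C/EBP-like site in a RefSeq window from 250 bases before to 50 after the start, for gene sets named on the y axis with the number of genes that have a window. The CHR core stands out in mitosis genes (81.1%) and the E2F-like site in replication genes (41.0%).

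B cell identity genes fell in the same hours. Of 20 pre-B and B cell receptor components 18 were lower and 0 higher (90.0%, median −1.77), with a sum that went from 3539 and 3561 CPM to 1244 and 1227 CPM. Igll1, the surrogate light chain λ5 of the pre-B cell receptor, gave 302 and 300.4 CPM at 6 hpi and 76.8 and 74.0 CPM at 18 hpi (−2.00 ± 0.043, adjusted p = 2.41e-38), and Ighm, the μ heavy chain, gave 1199 and 1229 CPM at 6 hpi and 308 and 305 CPM at 18 hpi (−1.99 ± 0.036, adjusted p = 1.12e-41). Igkc, the constant region of the κ light chain, fell further, with 19.6 and 18.9 CPM at 6 hpi and 2.87 and 1.66 CPM at 18 hpi (−3.10 ± 0.143, adjusted p = 1.81e-24). In these genes both 18 hpi libraries were below both 6 hpi libraries. Scaled to the leukocyte genes, 14 of the 20 receptor components were lower and 0 higher (median −0.92).

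Transcription factors of the B lineage were more mixed. Of 25 tested 15 were lower and 0 higher (60%, median −0.90). Pou2af1, the B cell coactivator OBF-1, gave 139.98 and 138 CPM at 6 hpi and 24.4 and 24.2 CPM at 18 hpi (−2.51 ± 0.047, adjusted p = 4.05e-41), and Spib, a relative of PU.1, gave 34.7 and 35.7 CPM at 6 hpi and 6.32 and 7.28 CPM at 18 hpi (−2.37 ± 0.102, adjusted p = 1.03e-25). Pax5, which guards B cell commitment, gave 217 and 230.4 CPM at 6 hpi and 50.9 and 57.4 CPM at 18 hpi (−2.04 ± 0.045, adjusted p = 6.70e-38), and Ebf1, which acts upstream of it, 135 and 138 CPM at 6 hpi and 49.7 and 50.9 CPM at 18 hpi (−1.44 ± 0.044, adjusted p = 6.90e-32). The order of these falls was Pou2af1, Spib, Pax5 and Ebf1, of which Spib and Pou2af1 lay within their standard errors of each other. On the leukocyte scale 8 of the 25 were lower, 5 were higher and the median was −0.05, and Ebf1 at −0.58 came just short of 1.5-fold.

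Genes of V(D)J recombination and early B cell surface proteins went down in part. Of 12 recombination and end-joining genes 5 were lower and 0 higher (median −0.28), a direction that turned on the leukocyte scale (2 lower, 6 higher, median 0.58), with Dntt, the template-free polymerase of V(D)J joints, at 20.4 and 21.1 CPM at 6 hpi and 3.84 and 3.67 CPM at 18 hpi (−2.46 ± 0.112, adjusted p = 8.45e-25) and Rag2, a subunit of the recombinase, at 5.04 and 4.47 CPM at 6 hpi and 1.30 and 1.42 CPM at 18 hpi (−1.79 ± 0.217, adjusted p = 1.10e-09). Rag2 was already low at 6 hpi. Of 20 early B cell surface and IL-7 pathway genes 12 were lower and 0 higher (median −0.72), and on the leukocyte scale 3 were lower and 6 higher (median 0.13). Enpep, the BP-1 aminopeptidase of pre-B cells, gave 40.7 and 41.4 CPM at 6 hpi and 6.58 and 7.05 CPM at 18 hpi (−2.59 ± 0.082, adjusted p = 1.91e-31), one of the largest falls in the list. Il7r, the receptor chain for the growth factor in the medium, fell little, from 44.9 and 42.9 to 27.6 and 29.2 CPM (−0.63 ± 0.067), and its direction turned on the leukocyte scale (0.23). MHC class II genes, which B cells and macrophages both use to present antigen, gave 6 of 10 lower and 0 higher (median −0.97), and 1 lower and 2 higher on the leukocyte scale (median −0.12). Among them H2-Ob, a regulator of peptide loading in B cells, gave 11.1 and 9.94 CPM at 6 hpi and 2.28 and 3.14 CPM at 18 hpi and Cd74, the invariant chain, 113 and 109.9 CPM at 6 hpi and 51.8 and 48.7 CPM at 18 hpi. Cxcr4, the chemokine receptor that keeps B cell precursors in the marrow, went from 146 and 148 to 58.8 and 56.4 CPM (−1.35 ± 0.047).

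**Figure D3:**
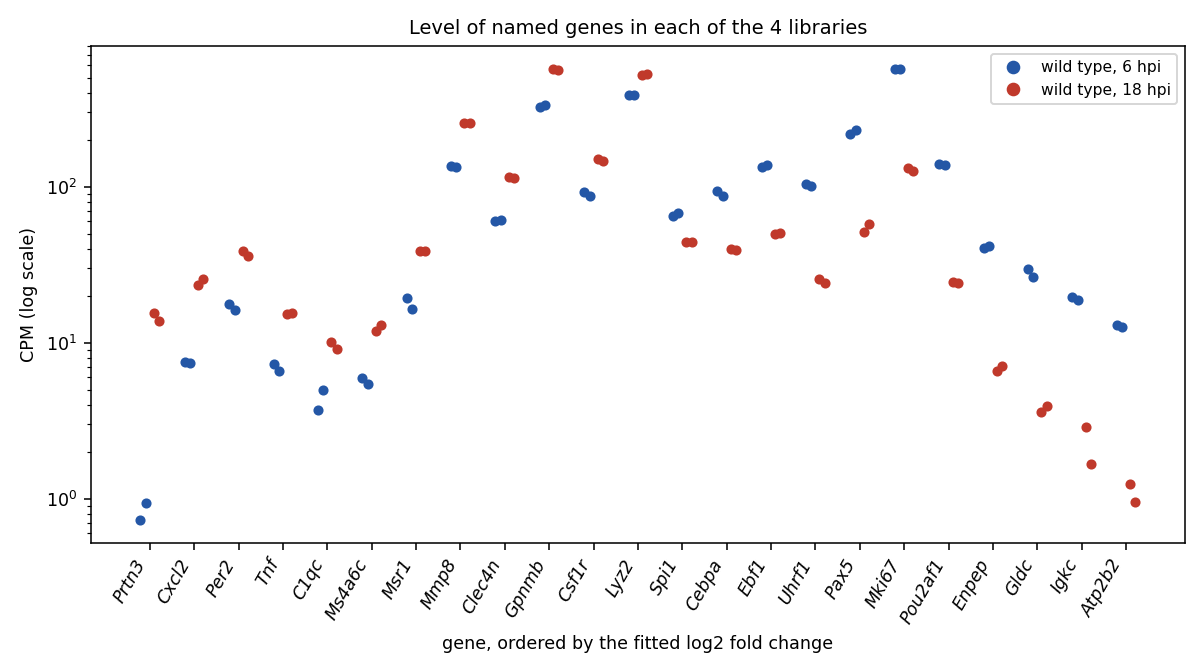
CPM (y axis, log scale) of 23 named genes in each of the 2 libraries at 6 hpi (blue) and the 2 at 18 hpi (red), ordered from the largest rise to the largest fall in the fit. For every gene drawn the 2 colours do not overlap, and the replicates lie close together beside the change.

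Beside these lists, the largest falls among named genes of at least 10 CPM at 6 hpi were of varied kinds. Atp2b2, a calcium pump of the plasma membrane, gave 12.9 and 12.6 CPM at 6 hpi and 1.24 and 0.947 CPM at 18 hpi (−3.54 ± 0.188, adjusted p = 5.20e-22). Smtnl2, a smoothelin-like gene, gave 8.82 and 11.6 CPM at 6 hpi and 1.11 and 1.13 CPM at 18 hpi, and Clgn, a chaperone of the endoplasmic reticulum best known from testis, 28.5 and 28.7 CPM at 6 hpi and 3.19 and 4.204 CPM at 18 hpi. Fndc9 gave 21.7 and 20.0 CPM at 6 hpi and 2.34 and 3.08 CPM at 18 hpi, Gldc, the glycine decarboxylase of mitochondria, 29.8 and 26.3 CPM at 6 hpi and 3.58 and 3.91 CPM at 18 hpi, and Tcrg-C2, a T cell receptor γ constant region, 10.4 and 10.0 CPM at 6 hpi and 1.498 and 1.60 CPM at 18 hpi. These 6 genes fell to between 0.947 and 4.204 CPM, with log2 fold changes from −2.71 to −3.54. Il12a, the p35 subunit of interleukin 12, also fell, from 21.4 and 23.7 to 3.91 and 3.26 CPM (−2.66 ± 0.131, adjusted p = 2.91e-23), and was the largest of 2 falls among the 32 cytokine and chemokine genes.

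The macrophage program rose moderately, and not in all of its lists. Of 20 macrophage genes that the study picked as signature genes, 9 were higher and 0 lower (median 0.66, 0.52 with genes below the detection floor of 3 counts at their bound), and their sum went from 499 and 498 CPM to 726 and 714 CPM. The 20 B cell signature genes of the study had 18 lower and 0 higher (median −1.86). Whether these samples had a part in the choice of either list is not given, so neither is taken as independent evidence of its direction. On the leukocyte scale 19 of the macrophage genes were higher (median 1.52) and 16 of the B cell genes lower (median −1.004). Csf1r, the receptor for CSF-1, gave 92.4 and 87.2 CPM at 6 hpi and 151 and 146 CPM at 18 hpi (0.73 ± 0.038, adjusted p = 3.01e-22), Itgam, which encodes CD11b or Mac-1, 17.6 and 18.14 CPM at 6 hpi and 31.5 and 30.5 CPM at 18 hpi (0.79 ± 0.072, adjusted p = 1.52e-13), and Cd14, the lipopolysaccharide coreceptor, 13.3 and 14.3 CPM at 6 hpi and 22.2 and 23.3 CPM at 18 hpi (0.72 ± 0.075, adjusted p = 1.32e-11). Lyz2, lysozyme M, went from 386 and 385 to 523 and 525 CPM, which at 0.44 ± 0.031, adjusted p = 3.89e-17 was not 1.5-fold. Set beside the 120 hpi libraries of the same cells, with 2117 and 2084 CPM of Csf1r and 11180.0 and 10965 CPM of Lyz2, both genes were still far below their end level at 18 hpi. Some other lists rose less. Phagocyte NADPH oxidase genes had 0 of 7 higher and 1 lower, and actin and membrane cytoskeleton genes 0 of 26 and 3. The integrin list had 2 of 15 higher and 2 lower. Chemokine and lipid mediator receptors had 3 of 18 and 4, and interferon-stimulated genes 2 of 33 and 4. Leukotriene and prostaglandin enzymes had 3 of 14 higher and 0 lower. On the leukocyte scale 5, 20, 12, 11, 21 and 11 of these genes were higher, in that order.

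Phagocyte receptors rose in part. Of 30 Fc, complement and TREM receptor genes 14 were higher (46.7%, beside 3.28% of all genes) and 3 lower, with a median of 0.63, and their sum went from 576 and 591 CPM to 743 and 735 CPM. C1qc, a chain of complement C1q, gave 3.71 and 4.97 CPM at 6 hpi and 10.2 and 9.18 CPM at 18 hpi (1.144 ± 0.143, adjusted p = 2.31e-09), and C5ar1, the C5a receptor, 2.06 and 2.98 CPM at 6 hpi and 5.14 and 6.45 CPM at 18 hpi (1.199 ± 0.183, adjusted p = 2.77e-07). The 3 that fell were Treml2 (47.1 and 45.9 CPM at 6 hpi and 19.3 and 20.4 CPM at 18 hpi), which B cells also express, Trem1, an activating receptor of monocytes and neutrophils (19.1 and 19.4 CPM at 6 hpi and 9.90 and 8.70 CPM at 18 hpi), and Fcgr2b, the inhibitory Fc receptor of B cells (−0.72), whose direction turned on the leukocyte scale (0.14). The levels of C1qc and C5ar1 were low, at most 10.2 CPM.

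Scavenger receptors and lipid handling genes rose likewise, with 10 of 20 higher, 1 lower and a median of 0.60, and their sum went from 1417 and 1414 CPM to 2020 and 1995 CPM. Msr1, the scavenger receptor A, gave 19.3 and 16.5 CPM at 6 hpi and 38.9 and 38.8 CPM at 18 hpi (1.12 ± 0.063, adjusted p = 6.27e-21), Stab1, a scavenger receptor for modified proteins, 15.6 and 16.2 CPM at 6 hpi and 35.6 and 28.6 CPM at 18 hpi (1.01 ± 0.083, adjusted p = 6.19e-15), and Gpnmb, a glycoprotein of lipid-laden macrophages, 326 and 336 CPM at 6 hpi and 567 and 563 CPM at 18 hpi (0.77 ± 0.030, adjusted p = 1.21e-27). Of 27 Toll-like and lectin receptor genes 7 were higher and 1 lower (median 0.27). The 7 were Cd14 and the lectins Clec7a, Clec4n, Clec4d, Clec4a1, Clec4e and Clec5a. No Toll-like receptor itself was called, with 10 tested from −0.36 (Tlr6) to 0.64 (Tlr5). Clec4n, or dectin-2, gave 60.4 and 60.9 CPM at 6 hpi and 115 and 113 CPM at 18 hpi (0.91 ± 0.047, adjusted p = 1.18e-22), and Clec7a, or dectin-1, 13.9 and 15.3 CPM at 6 hpi and 26.4 and 30.1 CPM at 18 hpi (0.96 ± 0.086, adjusted p = 1.32e-13). Nlrp3, the inflammasome sensor, was the one to fall (34.4 and 33.8 CPM at 6 hpi and 21.2 and 22.6 CPM at 18 hpi), and its direction turned on the leukocyte scale (0.21). Scaled to the leukocyte genes, the counts of higher genes became 24 of 30 for Fc, complement and TREM receptors, 18 of 20 for scavenger receptors and 24 of 27 for Toll-like and lectin receptors.

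Inflammatory mediators followed the phagocyte receptors. Of 32 cytokine and chemokine ligand genes 9 were higher and 2 lower (median 0.39, 0.34 with floor bounds), and on the leukocyte scale 25 higher and 1 lower (median 1.25). Cxcl2, a neutrophil chemokine, gave 7.56 and 7.39 CPM at 6 hpi and 23.3 and 25.5 CPM at 18 hpi (1.71 ± 0.085, adjusted p = 4.82e-23), its relative Cxcl1 14.8 and 11.6 CPM at 6 hpi and 27.5 and 28.9 CPM at 18 hpi (1.11 ± 0.082, adjusted p = 1.64e-16), and Tnf, tumour necrosis factor, 7.29 and 6.59 CPM at 6 hpi and 15.2 and 15.5 CPM at 18 hpi (1.15 ± 0.101, adjusted p = 7.18e-14). NF-kB feedback genes rose beside them, Nfkbia, the inhibitor IkBα, from 63.3 and 61.8 to 125 and 125 CPM and Tnfaip3, the deubiquitinase A20, from 55.2 and 54.1 to 92.0 and 93.7 CPM. They were the 2 of 14 NF-kB genes called higher, against 11 of 14 on the leukocyte scale. Birc3, a ubiquitin ligase of the same pathway, was the 1 lower (−0.59), and turned to 0.26 on the leukocyte scale. Of 22 AP-1 and immediate early genes 3 were higher and 0 lower, Fosb (111 and 107 CPM at 6 hpi and 189 and 189 CPM at 18 hpi), Atf3 (126 and 120.17 CPM at 6 hpi and 199 and 191 CPM at 18 hpi) and Fos (0.64), and on the leukocyte scale all 22 were higher.

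The largest rise among genes of at least 10 CPM was Prtn3, the serine protease proteinase 3 of granules, with 0.729 and 0.932 CPM at 6 hpi and 15.6 and 13.7 CPM at 18 hpi (4.12 ± 0.208, adjusted p = 6.65e-23). Elane, which encodes neutrophil elastase, was below the floor of 3 counts per library at 6 hpi (0.066 and 0 CPM at 6 hpi and 0.586 and 0.355 CPM at 18 hpi), which makes its rise at least 1.29 on the log2 scale and which missed the test without library 2 at 6 hpi (adjusted p = 0.056 with edgeR), and Mmp8, whose promoter is shown above, gave 135 and 134 CPM at 6 hpi and 256 and 256 CPM at 18 hpi (0.93 ± 0.040, adjusted p = 1.12e-25). These were 3 of the 4 rises among 18 lysozyme and granule genes, of which 2 fell, and on the leukocyte scale 10 were higher and 0 lower. Prtn3 was itself below 1 CPM at 6 hpi, so the size of its change rests on few reads there. Hp, haptoglobin, gave 13.7 and 15.3 CPM at 6 hpi and 31.8 and 28.8 CPM at 18 hpi (1.06 ± 0.072, adjusted p = 6.91e-18), and Ms4a6c, a tetraspan gene of myeloid cells, 5.90 and 5.47 CPM at 6 hpi and 11.9 and 13.0 CPM at 18 hpi (1.137 ± 0.110, adjusted p = 1.63e-12). Iron transporters of macrophages were among the top rises. Slc40a1, the exporter ferroportin, gave 8.82 and 9.26 CPM at 6 hpi and 17.0 and 20.8 CPM at 18 hpi. Slc11a1, the phagosomal transporter NRAMP1, gave 10.4 and 9.94 CPM at 6 hpi and 21.1 and 21.1 CPM at 18 hpi. The 12 iron handling genes were mixed as a list, with these 2 higher and 2 lower. Their median was 0.13 and their range −3.17 to 1.07, so the largest change was a fall. On the leukocyte scale 10 were higher and 1 lower (median 0.98, beside 0.87 over all genes).

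A gene of another kind was among the 10 largest rises of genes of at least 10 CPM. Per2, a repressor of the circadian clock, went from 17.6 and 16.1 CPM at 6 hpi to 38.7 and 36.2 CPM at 18 hpi (1.15 ± 0.084, adjusted p = 1.16e-16), having been at 19.1 and 20.4 CPM before induction, and at 120 hpi it was at 6.88 and 4.57 CPM. It was thus high at 18 hpi alone. In R35A cells it was at 27.2 and 27.2 CPM and 28.2 and 31.3 CPM at the same times. Of 16 clock genes looked at after this was seen, Per3 (0.60), Dbp (0.61), Hlf (0.73) and Ciart (0.77), all controlled by the clock as background, were also called higher. Of these Hlf lost the call in each fit without 1 of the 4 libraries (adjusted p from 0.055 to 0.13 with edgeR), and Per3 and Dbp each fell just under 1.5-fold without 1 of 2 libraries (0.53 and 0.54 for Per3, 0.58 and 0.58 for Dbp). Arntl, which encodes the activator BMAL1, stood at −0.27 and Clock at 0.09.

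Transcription factors of the switch were followed next. Spi1 (PU.1) went from 65.1 and 67.4 to 44.0 and 44.5 CPM (−0.58 ± 0.055, adjusted p = 6.20e-13), which lay just under 1.5-fold and passed it in 5 alternative fits, and its direction turned on the leukocyte scale (0.27). Reads of Cebpa, which can come from the cell's own gene or from the retroviral copy, went from 93.4 and 87.4 to 39.7 and 39.4 CPM (−1.19 ± 0.063, adjusted p = 4.11e-22), and by −0.34 on the leukocyte scale. Cebpb, a related factor of macrophages, was at 47.6 and 48.8 CPM at 6 hpi and 58.1 and 57.4 CPM at 18 hpi (0.26 ± 0.080, adjusted p = 0.0066). Of 27 myeloid transcription factors 1 was higher (Tfec, 0.77) and 5 lower. Among the falls Gfi1, a transcriptional repressor that acts in the granulocyte and early lymphoid lineages, went from 5.44 and 5.03 to 1.498 and 0.888 CPM. With adjusted p alone 11 were higher and 6 lower (median 0.20). On the leukocyte scale 19 were higher and 1 lower (median 1.04, beside 0.87 over all genes). Irf8, a factor of B cells and monocytes, had a log2 fold change of −1.004. Carm1, the methyltransferase that acts on arginine 35 of C/EBPα, was at 65.6 and 68.3 CPM at 6 hpi and 74.7 and 70.9 CPM at 18 hpi (0.12 ± 0.060, adjusted p = 0.1), and 0 of 8 arginine methyltransferase genes were called by edgeR (5 at an adjusted p of at most 0.05 without the fold threshold), against 6 higher on the leukocyte scale.

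Housekeeping programs stayed near the median of all genes. Of 59 ribosome biogenesis genes, 76 cytosolic ribosomal proteins and 76 oxidative phosphorylation subunits 0 were called by edgeR in either direction, with medians of −0.03, 0.04 and 0.09, although 25, 19 and 33 of them passed the adjusted p alone. The ribosomal proteins summed to 10503 and 10557 CPM at 6 hpi and to 10542 and 10331 CPM at 18 hpi. Lysosome genes shifted up together but by less than 1.5-fold, with 34 of 40 higher and 2 lower by adjusted p alone (22.5% and 22.2% of all genes), a median of 0.32 and 0 called higher. Psap, the precursor of the saposins, went from 1709 and 1701 to 2143 and 2137 CPM (0.33 ± 0.025), and Laptm5 was the 1 lower. On the leukocyte scale the medians of these 4 lists were 0.82, 0.89, 0.94 and 1.17, with 54, 71, 74 and 39 genes higher.

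**Figure D4:**
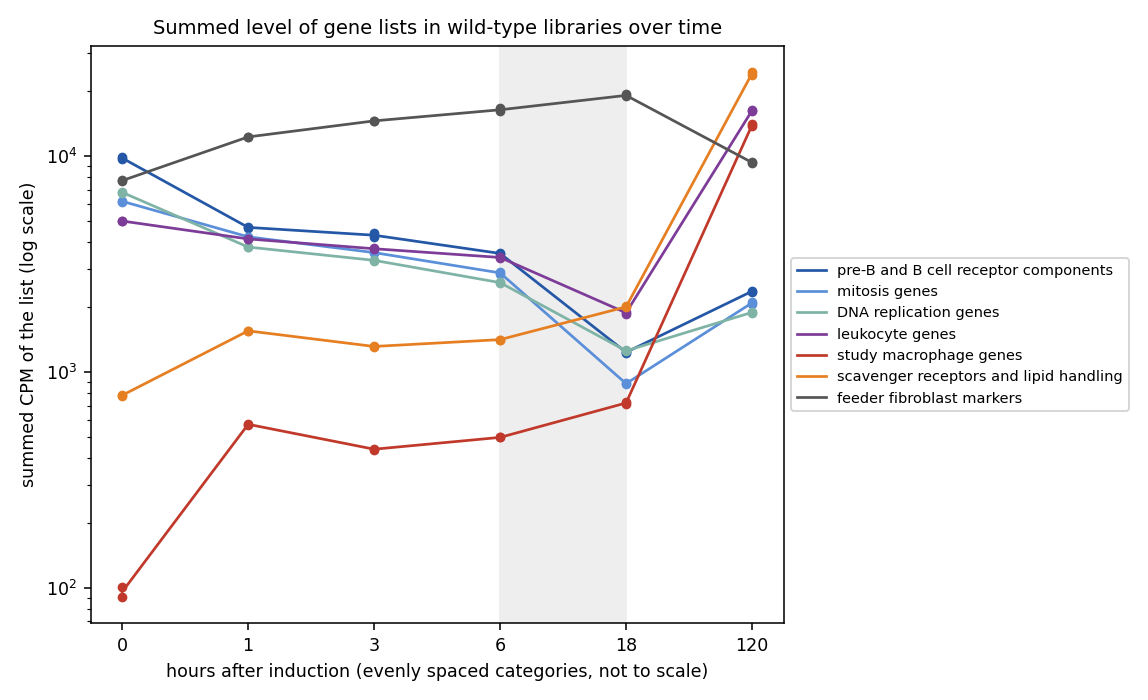
Summed CPM (y axis, log scale) of 7 gene lists in the wild-type libraries from 0 to 120 hpi (x axis, timepoints evenly spaced), with points for the 2 replicates, lines through their means and the interval from 6 to 18 hpi in grey. In that interval the B cell, replication, mitosis and leukocyte sums fall and the macrophage and scavenger sums rise, while the feeder markers, high at both times, rise from 16175 and 16709 to 19393 and 18952.

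The interval was also set beside other intervals of wild-type cells that share no library with it. Of the 1707 genes that fell between 6 and 18 hpi, 881 (51.6%) had been lower at 3 than at 0 hpi as well, which is 45.2% of the 1947 genes lower in that step (11.5% of all genes). Of the 558 that rose, 163 (29.2%) had been higher at 3 than at 0 hpi, which is 7.97% of the 2044 genes higher there (12.0% of all genes). Not all changes kept their course to the end. Of the falls 1055 (61.8%) were below and 274 (16.1%) above the starting level at 120 hpi, beside 40.2% and 23.1% of all genes. Of the rises 219 (39.2%) were above and 268 (48.0%) below it, so more of the genes that rose between 6 and 18 hpi ended lower than they started than ended higher. The feeder markers themselves were lower at 120 than at 0 hpi by a median log2 change of −4.41. Coro1a, Laptm5, Cd74 and Nlrp3 are among the genes that fell here and stood above the start at 120 hpi, at 1043 and 941, 1934 and 1809, 817 and 753 and 774 and 799 CPM.

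The change from 6 to 18 hpi differed between wild-type and R35A cells for part of the genes. In R35A cells 469 genes were lower (2.76%) and 258 higher (1.52%) between the same timepoints. Of the 1707 wild-type falls 371 (21.7%) were also lower in R35A, which is 79.1% of the R35A falls, and of the 558 rises 80 (14.3%) were also higher, which is 31.0% of the R35A rises. The difference of the changes (R35A minus wild type, an interaction term in the same fit) was positive for 1099 genes (6.47%) and negative for 336 (1.98%), or for 911 and 498 with DESeq2 size factors. For the mitosis genes it was positive in 44 of 45 (median 1.00), for the pre-B cell receptor components in 17 of 20 (median 0.86) and for the leukocyte genes in 18 of 25 (median 0.85). On the leukocyte scale 65 genes had a positive and 11612 a negative difference, so the direction of the count rests on the scaling.

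The levels show where this difference lay. Mki67 was at 242 and 244 CPM in R35A cells at 6 hpi, below the 566 and 573 CPM of wild-type cells, and at 125 and 123 CPM at 18 hpi, close to the 131 and 126 CPM of wild-type cells. Pax5 behaved alike, with 79.2 and 75.8 CPM and 40.7 and 36.4 CPM in R35A cells. R35A cells had thus less of both genes at 6 hpi and a smaller fall after it. Csf1r stood at 547 and 548 CPM and 622 and 631 CPM in R35A cells, above wild-type cells at both times. Msr1 rose in both, with a log2 change of 1.12 in wild-type and 1.00 in R35A cells, and a difference of −0.12 ± 0.077 that did not pass the test. In R35K cells, fitted apart, 703 of 16434 genes were lower (4.28%) and 184 higher (1.12%). Of the wild-type falls 575 (33.7%) were lower there too, 82.1% of the R35K falls that were tested in both fits, and of the rises 75 (13.4%) were higher, 41.0% of the R35K rises. The R35K change was not tested against the wild-type change.

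**Figure D5:**
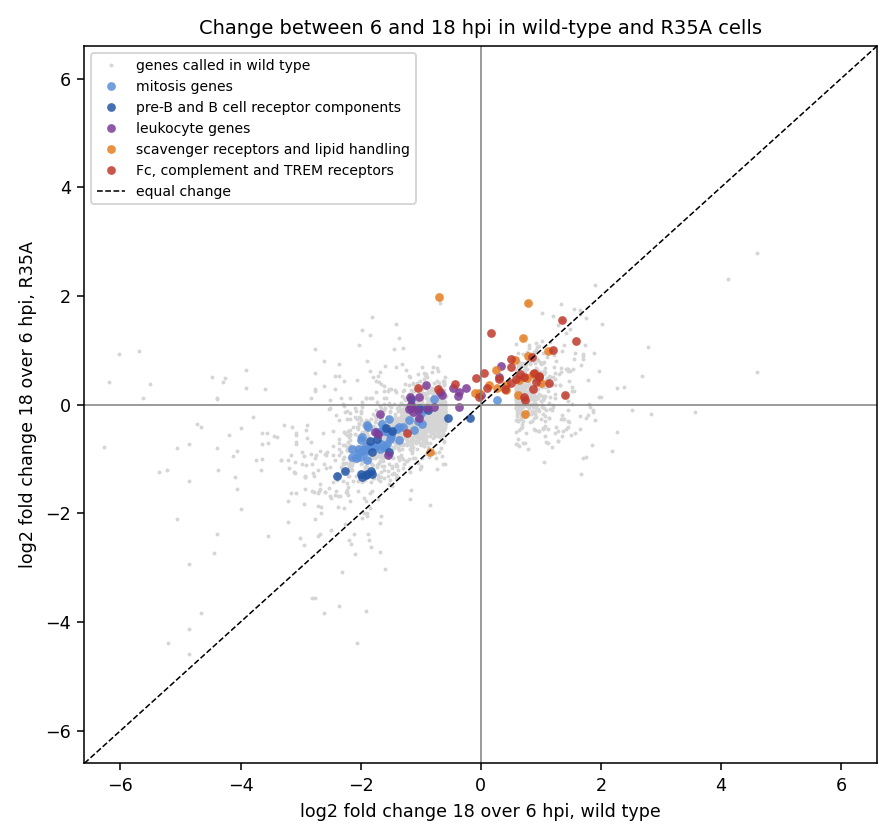
Log2 fold change of 18 over 6 hpi in R35A cells (y axis) against that in wild-type cells (x axis), both TMM-scaled, for the 2265 genes called in wild-type cells (grey) and the members of 5 lists (colours), with equal change dashed. The grey genes were chosen by their wild-type change, which by itself places many nearer to 0 on the y axis, the mitosis genes lie above the dashed line except 1, and the leukocyte genes are spread along 0 on the y axis; scaled to the leukocyte genes the direction of most differences turns.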

How the data were processed

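Bone marrow B cells with inducible C/EBPα were profiled by the authors with stranded poly(A) RNA-seq, single-end. Per the labels and the submitters' processing notes, reads were checked with FastQC and mapped with STAR 2.5.0a to mm10, and DESeq2 1.14.1 was used. The annotation release and the strand setting are not given in the sources used here, so reads of overlapping or antisense genes may not be told apart. The deposited table holds whole-number read counts per gene for 40354 genes, not normalized. The deposited log2 tables were not used.

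Counts were filtered with filterByExpr, TMM-normalized and fitted with edgeR 4.0.16's quasi-likelihood test (R 4.3.3) over the 24 wild-type and R35A libraries in 12 groups. All groups share 1 estimate of the spread. The 12 R35K libraries were fitted apart. A gene was called at an adjusted p (Benjamini-Hochberg, over all genes tested) of at most 0.05 and a change of at least 1.5-fold. Values after ± are standard errors and n = 2 libraries a group. The 2 libraries are biological replicates per the study's methods, which do not say whether they come from separate mice or infections. The common biological coefficient of variation of the fit, the spread between replicates as a share of the level, was 3.17%. The detection floor was 3 counts per library. The test was tried on simulated data first. DESeq2 1.42.0 was an alternative.

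Genes were named by rule: the 10 largest changes each way among called genes of at least 10 CPM with non-overlapping replicates, up to 2 called genes each way and the highest gene in each list (at least 5 CPM), the 5 highest and 5 lowest differences between R35A and wild type, and 18 genes of prior interest. Gm, Rik, pseudogene and immunoglobulin variable symbols were left out. Cdk1, Mcm5, Mcm6, Ccne1, Ccne2, Ptprc, Fn1, Lum, Elane, Fcgr2b, Fos, Irf8, Tfec, Tlr5, Tlr6 and the clock genes other than Per2 fell outside it and were named after their values were seen. A few genes that the rule names are not reported here. The comparison and the gene lists were chosen with earlier results of these data known.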

Additional observations from a re-analysis of the deposited data

Results flagged for a closer look

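The change from 6 to 18 hpi differed between R35A and wild-type cells for 56 of a set of 94 genes named here. The rule was the interaction term of the edgeR fit, with an adjusted p of at most 0.05 and a difference of at least 1.5-fold. Of all genes 6.47% had a positive and 1.98% a negative difference. The count is a description, since some genes were named for the size of this difference and others for their wild-type change, which is a term of it. Values in parentheses are R35A minus wild type on the log2 scale, so that a positive value stands for a smaller fall or a larger rise in R35A cells. Among B cell genes the differences were Pax5 (1.03), Ebf1 (0.89), Igll1 (0.72), Ighm (0.66), Igkc (2.05), Il7r (0.72), Pou2af1 (1.36), Spib (1.06), Dntt (1.70), Enpep (1.69), H2-Ob (1.16), Cd74 (0.80) and Cxcr4 (0.79). Among cell cycle and DNA methylation genes they were Mki67 (1.18), Knl1 (1.33), Cdk1 (0.91), Uhrf1 (1.22), Mcm3 (1.21), Mcm5 (1.06), Mcm6 (0.92), E2f2 (1.195) and Dnmt1 (1.02). Genes shared by leukocytes and transcription factors gave Ptprc (0.91), Coro1a (0.93), Laptm5 (0.85), Cebpa (1.04), Spi1 (0.78), Gfi1 (1.03) and Irf8 (0.78), and receptors and signalling genes that fell in wild-type cells, or were not called there, gave Treml2 (0.70), Trem1 (1.36), Fcgr2b (1.00), Tlr6 (0.61), Nlrp3 (0.84) and Birc3 (0.75). The remaining genes that fell most in wild-type cells gave Gldc (2.28), Fndc9 (1.59), Clgn (1.12) and Smtnl2 (2.02).

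Negative differences, a smaller rise or a larger fall in R35A cells, were found for Prtn3 (−1.81), Elane (−3.69), Cxcl2 (−0.86), Cxcl1 (−0.78), Per2 (−1.02), Ms4a6c (−0.61), Slc40a1 (−0.75), C1qc (−0.74), Stab1 (−0.61), Fosb (−0.71) and Fos (−0.66). Elane was at the floor at 6 hpi in wild-type cells. In R35A cells it was near the floor at both times (0.12 and 0.188 CPM at 6 hpi, 0.13 and 0.155 CPM at 18 hpi). Its fitted value is thus no bound on the difference and rests on few reads. Named for the size of the difference itself were Ms4a4a (−1.20), Klrg2 (−1.33) and Upk3b (−1.40), which had no other place in the text. The values for Lars2 (3.89), Mir6236 (4.75) and CT010467.1 (4.98) rest on library 1 of wild-type cells at 6 hpi, which stood apart in these genes. R35A cells already had lower CPM of Mki67 and Pax5 at 6 hpi. The part of that starting level, and of the leukocyte share of the culture, in these differences was not tested.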

How the results depend on the processing

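The main counts of 558 genes higher and 1707 lower at 18 than at 6 hpi stayed within 1.5 times under DESeq2's Wald test (596 and 1360), DESeq2 size factors in edgeR (788 and 1553, 33.7% of calls higher), no filter on low counts, a stricter filter, a fit of only the groups compared, and without 1 library at a time (465 to 532 higher and 1595 to 1658 lower). Of the 558 rises 353 were still called without library 1 at 6 hpi, 390 without library 2, and 379 and 368 without library 1 or 2 at 18 hpi, and of the 1707 falls 1481, 1476, 1481 and 1427. Without library 1 at 6 hpi 2 of the called genes had the opposite sign. Without 1 of the wild-type libraries the R35A minus wild-type difference gave 990 to 1069 genes higher and 248 to 297 lower. With a 2-fold threshold 160 genes were higher and 1048 lower and the difference gave 445 and 117, and with adjusted p alone 3826 and 3775, and 2396 and 2020. With unadjusted p the difference gave 537 genes lower. Under the 2-fold threshold 4 Fc, complement and TREM receptor genes and 2 scavenger receptor genes were higher and 23 DNA replication genes lower. Scaling to the leukocyte genes, chosen after seeing the data, moved the median of all genes to 0.87 and gave 11595 genes higher and 507 lower, a difference of 65 and 11612, 24 Fc, complement and TREM receptor genes and 18 scavenger receptor genes higher, and 11 DNA replication genes and 8 B lineage factors lower. It turned Il7r to 0.23, Birc3 to 0.26, Nlrp3 to 0.21, Fcgr2b to 0.14 and Ptprc to 0.17, which follows from its construction, since the reference genes themselves fell. The same replicate numbers did not pair the libraries (correlation of deviations −0.084 for 6 and 18 hpi, median −0.005 over 66 pairs of groups), and with the replicate number as a block 552 genes were higher and 1700 lower. Depth limits genes near the floor of 3 counts per library, where 111 of the falls and 20 of the rises had 1 group.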
